A study of Mus musculus with 5 samples.

Results

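The genes described here encode the DNA replication machinery: 39 genes chosen by symbol, for the loading of the replicative helicase, its activation, the polymerases, the sliding clamp, the joining of DNA fragments, the supply of nucleotides, the packing of new DNA and the entry into S phase. All 39 symbols were found among the 12370 gene symbols of the count table, and all 39 passed the filter on low counts. The series compared lenses of mouse embryos at embryonic day 14, in 3 control and 2 N-myc knockout libraries. The controls were Cre-negative animals with loxP-flanked N-myc alleles (N-mycloxP/loxP), some of them also with loxP-flanked c-myc. The labels do not say which control library had which of these genotypes. The knockouts carried the same loxP-flanked N-myc alleles and 1 copy of Mlr10-Cre, a transgene known to drive Cre recombinase in lens cells. Each library was made from a pool of lysates of lenses from single animals, and the series calls the libraries biological replicates. Because Cre was present in the knockouts alone, an effect of the transgene cannot be told apart from one of the deletion.

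Before S phase, the origin recognition complex, CDC6 and CDT1 load the ring-shaped MCM2 to MCM7 helicase onto DNA. CDC45, the GINS complex and MCM10 then turn the loaded ring into a moving helicase, and the polymerases copy the separated strands. Many of these genes are transcribed in bursts ahead of S phase by E2F factors, and several are also known targets of MYC proteins, which bind the E-box. In the embryonic lens, cells of the epithelium divide, whereas fibre cells leave the cell cycle and differentiate.

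Promoter sequences were examined first, because they show which members share the motif of the S-phase activator E2F and which hold the E-box. RefSeq promoter windows (GRCm38.p6, 250 bases before to 50 bases after the annotated start) were matched by symbol for 32 of the 39 members, in 38 windows. Mcm4, Rfc2, Ccne2, Gins4, Gins2, Gins1 and Pole had no entry. The E2F motif was searched on both strands as TTTCCCGC, TTTCGCGC, TTTGCCGC or TTTGGCGC, which can overlap each other, and the E-box as CACGTG. The stretches below run 5′ to 3′ on the strand of the gene, with matches in capitals. They were chosen because every match shown lies before the annotated start, and because they come from a gene of the helicase ring that was higher in both knockout libraries (Mcm5), a gene of the same ring with separate matches (Mcm6), the polymerase gene Pola1, and Tyms and Chaf1a, 2 of the 4 members with an E-box.
Mcm5: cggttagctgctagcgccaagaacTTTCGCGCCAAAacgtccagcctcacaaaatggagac
Mcm6: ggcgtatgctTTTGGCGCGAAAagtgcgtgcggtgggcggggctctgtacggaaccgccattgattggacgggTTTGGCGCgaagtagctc
Pola1: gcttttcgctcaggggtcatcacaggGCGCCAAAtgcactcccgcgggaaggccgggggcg
Tyms: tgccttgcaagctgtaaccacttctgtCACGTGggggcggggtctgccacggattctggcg
Chaf1a: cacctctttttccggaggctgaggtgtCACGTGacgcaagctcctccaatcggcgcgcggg

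The Mcm5 stretch lies at chr8:75109332-75109392 on the plus strand, and its 2 E2F matches overlap on opposite strands, beginning 153 and 149 bases before the start. The Mcm6 stretch lies at chr1:128359735-128359825 on the minus strand, with an overlapping pair of matches and a separate one beginning 47 bases before the start. The Pola1 stretch lies at chrX:93632259-93632319 on the minus strand, the Tyms stretch at chr5:30073653-30073713 on the minus strand and the Chaf1a stretch at chr17:56040290-56040350 on the plus strand. An E2F match was present in 15 of the 38 member windows, or 39.5%, against 2.26% of all 32851 windows and 3.94% of the 11961 windows of genes tested here. The share differed by role. Among genes with a window, 6 of 7 helicase loading genes (Mcm3, Mcm5, Mcm6, Mcm7, Cdc6 and Cdt1) and 3 of 4 polymerase genes (Pola1, Pold1 and Pole2) had a match, and 0 of 4 nucleotide supply genes did. The E-box was found in 4 of the 38 windows, or 10.5%, against 7.15% of all windows and 1199 of the 11961 windows of genes tested, and the genes were Tyms, Chaf1a, Fen1 and Lig1. The median log2 fold change between knockout and control lenses was 0.15 over the 15 members with an E2F match and 0.07 over the 17 without, and it was 0.17 over the 4 with an E-box and 0.14 over the 28 without. A match is a description of these letters in this window and shows no binding.

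**Figure D1:**
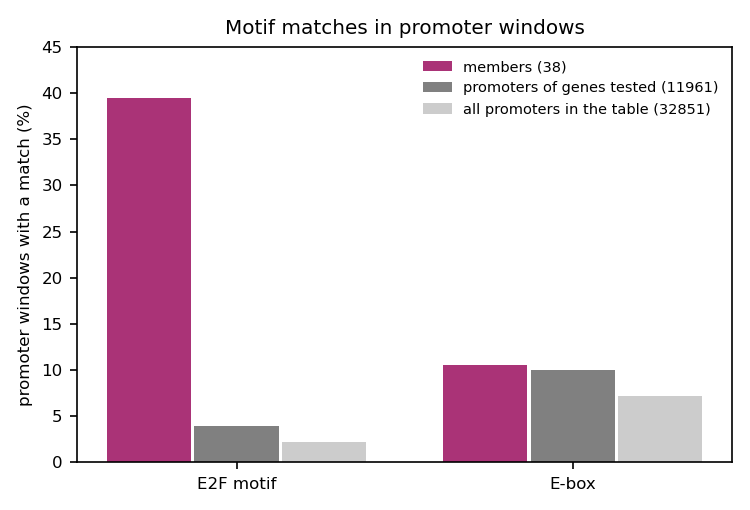
Percent of promoter windows (y axis) with at least 1 match to the E2F motif or the E-box, for the members (38 windows), the genes tested (11961) and all windows of the table (32851). The E2F bar of the members stands at 39.5%, against 3.94% and 2.26%, while the E-box bars lie between 7.15% and 10.5%.

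The libraries held 13162384 to 13746416 counts. The targeted gene Mycn was at 162, 148 and 140 CPM (counts scaled to library totals, with the TMM factors of edgeR) in control replicates 1 to 3 and at 57.3 and 81.9 CPM in knockout replicates 1 and 2 (log2 fold change -1.11, edgeR adjusted p = 0.0097, and 0.0557 without control replicate 2). Reads outside the deleted part may be counted, since no label places the loxP sites in the gene. The lens fibre marker Cryaa was at 41907 to 51879 CPM and the lens epithelium marker Pax6 at 311 to 352 CPM over the 5 libraries. The 8 fibre markers summed to 82127 to 103720 CPM in the controls and 76715 and 90067 CPM in the knockouts, and 3 (Bfsp1, Mip and Birc7) were called lower. Bfsp1 was at 1301 to 2045 CPM in the controls and 469 and 658 CPM in the knockouts. The 5 epithelium markers summed to 2217 to 2385 CPM in the controls and 2014 and 2034 CPM in the knockouts, and 1 (Cryab) was called lower, while Foxe3 was above every control in both knockouts. Markers of retina, 7 of 8 of which were called higher, summed to 70.5 to 72.1 CPM in the controls and to 112 and 220 CPM in knockout replicates 1 and 2. Markers of mesenchyme, 3 of 8 of which were called higher, summed to 138, 169 and 411 CPM in the controls and to 1824 and 313 CPM in the knockouts. The 6 endothelial markers summed to 202 to 246 CPM in the controls and 209 and 217 CPM in the knockouts. Of 6 macrophage markers, 3 were in the table and summed to 12.0 to 18.3 CPM in the controls and 24.8 and 25.04 CPM in the knockouts. Of 7 red cell markers, 6 were in the table, with Hba-a1, Hba-a2 and Hbb-bt at 0 and a sum of 62.7 to 94.9 CPM in the controls and 60.0 and 61.8 CPM in the knockouts.

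None of the 39 replication genes passed the test between knockout and control lenses (edgeR quasi-likelihood, Benjamini-Hochberg adjusted p under 0.05), while 16.5% of the 12035 genes tested did. DESeq2 and limma-voom called 0 members as well. At an unadjusted p under 0.05 edgeR counted 7 members, 6 higher and 1 lower, DESeq2 4 and limma-voom 6. With edgeR 35.8% of all genes had such a p, 18.2% higher and 17.6% lower. DESeq2 gave such a p to 3902 of the 12370 symbols, and limma-voom to 4177 of 12035 genes. The median log2 fold change of the members was 0.13, beside 0.002 over all genes tested, with 24 members above 0 and 15 below. Scaling by library totals only put 30 above 0, with the median of all genes at 0.087 and that of the members at 0.22. Without knockout replicate 2 the median of the members was 0.057. For 27 of the 39 members, or 69.2%, the 95% interval of the fold change lay within a 1.5-fold change in either direction, against 49.5% of all genes tested. In these pooled lenses, a change in the number of dividing cells cannot be told apart from a change in RNA per cell. Over all members together the summed level was 1278, 1277 and 1210 CPM in the controls and 1281 and 1359 CPM in the knockouts, and knockout replicate 1 was close to the highest control.

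**Figure D2:**
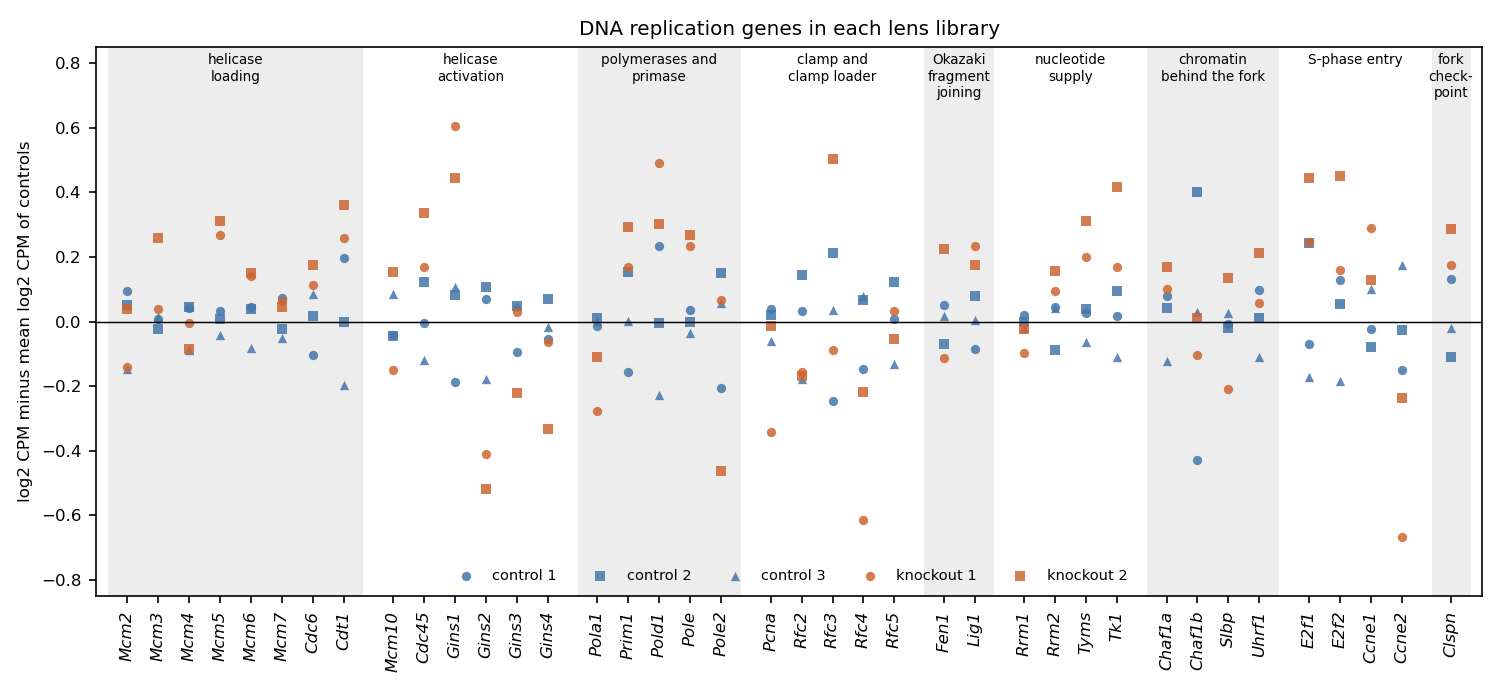
Each point is 1 member in 1 library, as log2 CPM minus the mean log2 CPM of the 3 controls (y axis), with members on the x axis by role. Most points lie within 0.4 of the control mean, Gins1 and Pold1 in knockout replicate 1 and Rfc3 in knockout replicate 2 stand highest, and Ccne2 and Rfc4 in knockout replicate 1 stand lowest.

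The groups of libraries did not overlap for 25 of the 39 members, where 52.5% of all genes tested showed this. For 19 members both knockouts lay above all controls, or 48.7% against 25.5% of all genes, and for 6 both lay below, or 15.4% against 27.0%. Knockout replicate 2 was above knockout replicate 1 for 27 members and below it for 12, and the same count over all genes was not made. Knockout replicate 2 had the higher sum of retina markers, and knockout replicate 1 the higher sum of mesenchyme markers. The median difference of the members from the control mean was 0.06 on the log2 scale in knockout replicate 1 and 0.16 in knockout replicate 2, within -0.02 to 0.04 in the controls. The part of retina or mesenchyme cells in these differences was not tested.

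**Figure D3:**
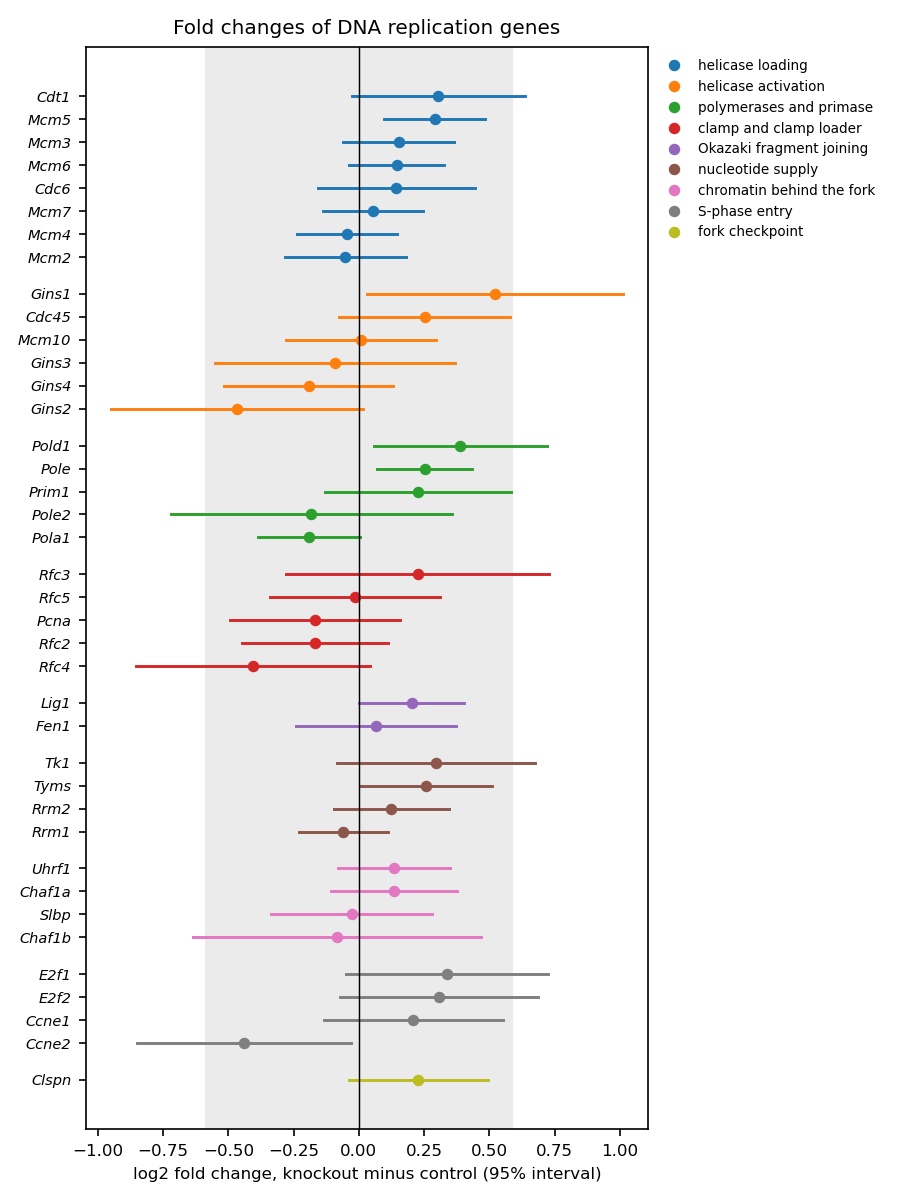
Log2 fold change of each member (points) with its 95% interval (lines), ordered within roles, knockout minus control. The grey band marks a 1.5-fold change in either direction, and 27 of the 39 intervals lie inside it.

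The 8 helicase loading genes had log2 fold changes from -0.05 to 0.30 with a median of 0.14, and 7 of the 8 intervals lay within 1.5-fold. Mcm5, a subunit of the helicase ring with the E2F matches shown above (chromosome 8, 75109569 to 75128439, GRCm38), was at 45.2, 44.4 and 43.0 CPM in the controls and 53.2 and 54.8 CPM in the knockouts. Both knockouts lay above every control, by more than the spread of either group (44.2 ± 1.15 CPM, SD, n = 3, and 54.0 ± 1.10 CPM, SD, n = 2). The log2 fold change was 0.29 (SE 0.083, 95% interval 0.10 to 0.48), with an edgeR adjusted p = 0.0501 that just missed the threshold. It was called in 3 of 14 alternatives (edgeR adjusted p from 0.0267 to 0.248), the 3 being other scalings of the libraries.

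Mcm2, the most abundant ring subunit, was at 118, 114 and 99.7 CPM in the controls and 99.98 and 113 CPM in the knockouts, so the groups overlapped (log2 fold change -0.05, 95% interval -0.28 to 0.18). With the trends on GC content and length removed, its log2 fold change was -0.24 (edgeR adjusted p = 0.115). Cdt1, which delivers the ring to origins, was at 21.2, 18.5 and 16.2 CPM in the controls and 22.2 and 23.8 CPM in the knockouts (log2 fold change 0.30, SE 0.14, edgeR adjusted p = 0.17). Removing the GC and length trends left Cdt1 at 0.11. The controls of Cdt1 differed among themselves by more than the gap between the highest control and the lower knockout. Cdc6, the loading ATPase, had a log2 fold change of 0.14, and Mcm3, Mcm4, Mcm6 and Mcm7 had 0.15, -0.04, 0.14 and 0.05. With scaling by library totals only, Mcm2 and Mcm4 were at 0.032 and 0.041. For all 6 ring subunits the interval lay within 1.5-fold.

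Per length of transcript, the ring subunits were near each other in the controls, from 32.8 ± 2.84 CPM per kilobase for Mcm2 to 13.1 ± 0.340 CPM per kilobase for Mcm5 (SD, n = 3), a range of 2.51-fold. Mcm4, Mcm6, Mcm7 and Mcm3 lay between 20.4 and 18.0 CPM per kilobase. In the knockouts Mcm5 reached 15.98 ± 0.326 CPM per kilobase (SD, n = 2) and was still the lowest of the 6. Mcm2 ranked first among all 39 members in both groups on this scale. The lengths are those of the longest coding transcript, and 321 exon bases of Mcm7 overlap Ap4m1 on the opposite strand, so reads of this stretch may belong to either gene.

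The helicase activation genes included the member with the highest and the one with the lowest log2 fold change. Both encode subunits of GINS, a complex that holds 1 copy of each of its 4 proteins. Gins1 (chromosome 2, 150905400 to 150931280) was at 3.84, 4.63 and 4.71 CPM in the controls and 6.66 and 5.95 CPM in the knockouts, with both knockouts above every control. Its log2 fold change came to 0.52 (SE 0.21, 95% interval 0.03 to 1.01, edgeR adjusted p = 0.121). With the GC and length trends removed, Gins1 was called higher (log2 fold change 0.84, edgeR adjusted p = 0.0428), the lowest adjusted p of its 14 alternatives, which reached 0.402.

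Gins2 was at 6.59, 6.76 and 5.54 CPM in the controls and 4.72 and 4.38 CPM in the knockouts, with both knockouts below every control (log2 fold change -0.47, SE 0.21, 95% interval -0.95 to 0.01, edgeR adjusted p = 0.15). Of its exon bases, 2758 overlap Gse1 on the opposite strand, so its count may hold reads of that gene. Gins4 and Gins3 had log2 fold changes of -0.19 and -0.09. Mcm10, which helps the helicase to start, was at 25.4, 25.3 and 27.7 CPM in the controls and 23.5 and 29.1 CPM in the knockouts, and its knockout values fell on either side of the controls (log2 fold change 0.01, 95% interval -0.28 to 0.30). Cdc45, the helicase cofactor, had a log2 fold change of 0.25 (95% interval -0.08 to 0.58).

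Among the members, genes of the catalytic subunits of the leading and lagging strand polymerases were higher in both knockouts than in every control. The gene of the catalytic subunit of the priming polymerase, Pola1, was lower in both. Prim1, the primase of that complex, was above every control. Other subunits, from a list of other replication genes described further below, did not split this way, and none was called. Over all genes tested, both knockouts lay above every control for 25.5% and below for 27.0%. Pola2 and Prim2, of the same complex as Pola1, had log2 fold changes of 0.40 and 0.06. Pold2 and Pold3 had -0.34 and 0.05, and Pole3 and Pole4 had -0.41 and -0.48. Pole, the catalytic subunit of polymerase epsilon (chromosome 5, 110286306 to 110337474), was at 52.7, 51.4 and 50.2 CPM in the controls and 60.5 and 61.9 CPM in the knockouts. Its log2 fold change was 0.25 (SE 0.080, 95% interval 0.07 to 0.43, edgeR adjusted p = 0.0633). Pold1, the catalytic subunit of polymerase delta (chromosome 7, 44532746 to 44548849), was at 32.4, 27.5 and 23.5 CPM in the controls and 38.7 and 34.0 CPM in the knockouts (log2 fold change 0.39, SE 0.14, 95% interval 0.06 to 0.72, edgeR adjusted p = 0.0946).

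Pold1 has the highest GC content of all members, 60.7%, and with the GC and length trends removed its log2 fold change was 0.001. Pole then had 0.09. Without control replicate 1, Pold1 was called higher (log2 fold change 0.52, edgeR adjusted p = 0.0472, range over its alternatives 0.0472 to 0.995).

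Pola1, the catalytic subunit of the polymerase that extends primers, was at 68.1, 69.4 and 68.8 CPM in the controls and 56.8 and 63.8 CPM in the knockouts. The controls agreed closely (68.8 ± 0.627 CPM, SD, n = 3), and both knockouts lay below them (log2 fold change -0.19, SE 0.085, 95% interval -0.39 to 0.005, edgeR adjusted p = 0.148). With the GC and length trends removed, the value was 0.019. Prim1, the primase that works with Pola1, had a log2 fold change of 0.23 (95% interval -0.13 to 0.58), and was called higher with these trends removed (0.53, edgeR adjusted p = 0.0434, range over its alternatives 0.0434 to 0.572). Pole2, an accessory subunit of polymerase epsilon, had -0.18 (95% interval -0.72 to 0.36), 0.11 with these trends removed and 0.057 without knockout replicate 2.

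The clamp and clamp loader was the only role with more than 1 member whose median log2 fold change was below -0.1, at -0.17, with 4 of 5 genes below 0 (3 of 5 with scaling by library totals only). The median was -0.06 without knockout replicate 1 and -0.08 without control replicate 2. Rfc4, a loader subunit, was at 7.92, 9.18 and 9.26 CPM in the controls and 5.73 and 7.53 CPM in the knockouts (log2 fold change -0.41, SE 0.20, edgeR adjusted p = 0.174). Removing the GC and length trends left Rfc4 at -0.04. Rfc3, another loader subunit, was at 9.17, 12.6 and 11.2 CPM in the controls and 10.2 and 15.4 CPM in the knockouts, and the groups overlapped (log2 fold change 0.22, SE 0.22, edgeR adjusted p = 0.489). Rfc2, the most abundant of this role, was at 30.2, 32.6 and 26.1 CPM in the controls and 26.5 and 26.3 CPM in the knockouts (log2 fold change -0.17, edgeR adjusted p = 0.349). Both knockout values of Rfc2 fell within the range of the controls.

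Pcna, the sliding clamp itself, had a log2 fold change of -0.17 (95% interval -0.49 to 0.16). Its knockout values were 15.5 and 19.5 CPM, and the higher of them was within the control range of 18.9 to 20.2 CPM. The annotation holds 2 processed pseudogenes of Pcna, so its reads may be shared or lost. Rfc5, a loader subunit, had -0.01 (95% interval -0.34 to 0.31). The exons of Rfc2, Rfc4 and Rfc5 overlap genes of the opposite strand by 952, 175 and 499 bases. With the GC and length trends removed, the median of the role was 0.04.

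Both genes for the joining of lagging strand fragments had positive log2 fold changes. Lig1, the ligase that seals the nicks, was at 49.2, 55.3 and 52.4 CPM in the controls and 61.5 and 59.0 CPM in the knockouts, with both knockouts above every control (log2 fold change 0.20, SE 0.087, 95% interval 0.002 to 0.40, edgeR adjusted p = 0.137). Removing the GC and length trends left Lig1 at 0.09. Fen1, the flap nuclease that works before it, was at 23.4, 21.5 and 22.8 CPM in the controls and 20.8 and 26.3 CPM in the knockouts. The knockout values of Fen1 lay on either side of the controls (log2 fold change 0.07, edgeR adjusted p = 0.756).

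Nucleotide supply genes had a median log2 fold change of 0.19, against 0.14 for helicase loading and 0.23 for the polymerases. With the GC and length trends removed, the medians were 0.31, 0.09 and 0.09, so this role then stood highest of the 3. Without control replicate 1 they were 0.21, 0.13 and 0.16, and without knockout replicate 2 they were 0.13, 0.09 and 0.16. In a list of other replication genes, described further below, the medians of nucleotide supply, helicase loading and the polymerases were -0.16, -0.22 and -0.14. These came from the main fit, over 7, 8 and 6 genes. No test of a difference between roles was made. Tyms, thymidylate synthase (chromosome 5, 30058202 to 30073617), with the E-box shown above, was at 22.4, 22.6 and 21.1 CPM in the controls and 25.3 and 27.3 CPM in the knockouts. Both knockouts lay above every control (22.05 ± 0.825 CPM, SD, n = 3, and 26.3 ± 1.41 CPM, SD, n = 2). The log2 fold change of Tyms was 0.26 (SE 0.11, 95% interval 0.005 to 0.51, edgeR adjusted p = 0.134). The annotation holds a processed pseudogene of Tyms.

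Tk1, the thymidine kinase of S phase, was at 8.70, 9.18 and 7.97 CPM in the controls and 9.66 and 11.5 CPM in the knockouts (log2 fold change 0.29, SE 0.17, edgeR adjusted p = 0.237). Rrm1, the large subunit of ribonucleotide reductase, was at 107, 105 and 104 CPM in the controls and 98.3 and 103 CPM in the knockouts. Its knockouts lay below every control by a small margin, and the interval of the log2 fold change was -0.23 to 0.11 around -0.06 (0.025 with scaling by library totals only). Rrm2, the S-phase small subunit of the same enzyme, had a log2 fold change of 0.12 (95% interval -0.10 to 0.34), and 0.32 with the GC and length trends removed (edgeR adjusted p = 0.0646). Per length of transcript, Rrm1 was at 26.3 ± 0.348 and Rrm2 at 16.2 ± 0.854 CPM per kilobase in the controls (SD, n = 3).

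Among the genes that pack and mark new DNA, Uhrf1, which guides the maintenance of DNA methylation, was at 90.1, 84.9 and 78.1 CPM in the controls and 87.7 and 97.5 CPM in the knockouts. The groups overlapped (log2 fold change 0.13, SE 0.093, edgeR adjusted p = 0.331), and with the GC and length trends removed Uhrf1 had -0.006. Chaf1b, a subunit of the chromatin assembly factor, was at 7.13, 12.7 and 9.79 CPM in the controls and 8.95 and 9.68 CPM in the knockouts, so both knockouts fell inside the widest relative control range of these 4 genes (log2 fold change -0.08, SE 0.24, edgeR adjusted p = 0.826). Chaf1a, its large partner with an E-box shown above, had a log2 fold change of 0.13 (95% interval -0.11 to 0.37). Of its exon bases, 1862 overlap Ubxn6 on the opposite strand. Slbp, which binds the end of histone messenger RNAs, had -0.03 (95% interval -0.34 to 0.28).

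The S-phase entry genes held the only member that was lower at an unadjusted p under 0.05. Ccne2, cyclin E2 (chromosome 4, 11191351 to 11204779), was at 15.4, 16.8 and 19.4 CPM in the controls and 10.8 and 14.6 CPM in the knockouts. Both knockouts lay below every control (log2 fold change -0.44, SE 0.18, 95% interval -0.85 to -0.03, edgeR adjusted p = 0.118). Ccne2 has the lowest GC content of all members, 36.3%, and with the GC and length trends removed its log2 fold change was 0.04 (edgeR adjusted p = 0.859). It was called lower without knockout replicate 2, at -0.67 (edgeR adjusted p = 0.0395, range over its alternatives 0.0395 to 0.862).

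Ccne1, cyclin E1, with a log2 fold change of 0.21 (95% interval -0.13 to 0.55), had the opposite sign to Ccne2. E2f1, an activator of S-phase genes, was at 12.5, 15.5 and 11.6 CPM in the controls and 15.5 and 17.8 CPM in the knockouts. The lower knockout of E2f1 was near the highest control, and the log2 fold change was 0.34 (SE 0.17, 95% interval -0.05 to 0.72, edgeR adjusted p = 0.186). E2f2, a related activator, had 0.31 (95% interval -0.07 to 0.69). After removal of the GC and length trends, E2f1 had 0.09 and E2f2 0.008. The fork checkpoint mediator Clspn was at 26.8, 22.7 and 24.1 CPM in the controls and 27.6 and 29.8 CPM in the knockouts (log2 fold change 0.23, SE 0.12, edgeR adjusted p = 0.195).

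The median log2 fold change of all genes tested rose with the GC content of the transcripts, and the members had lower values at low GC content than at high. The tested genes were put in 5 bins of equal size by GC content. In the bin of lowest content (31% to 44.4%) the median log2 fold change was -0.23, and the 4 members in it had a median of -0.30. In the bin of highest content (55.9% to 78.9%) the median of all genes was 0.26 and that of its 4 members 0.32. In the 3 bins between, from low to high GC content, the members had medians of -0.04, 0.18 and 0.13 and all genes -0.075, 0.02 and 0.11. The 6 other replication genes in the bin of highest content had a median of -0.01, away from that of all genes. The median GC content was 49.4% over the members and 50.1% over all genes tested. With each library's trend on GC content and length removed, 29 of the 39 members had a log2 fold change above 0, with a median of 0.09. In that fit 2 of the 39 members were called, Gins1 and Prim1, both higher. Of the 11804 genes tested in it, 451 were called higher and 729 lower. Whether the trend arose in the tissue or in the libraries was not tested.

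**Figure D4:**
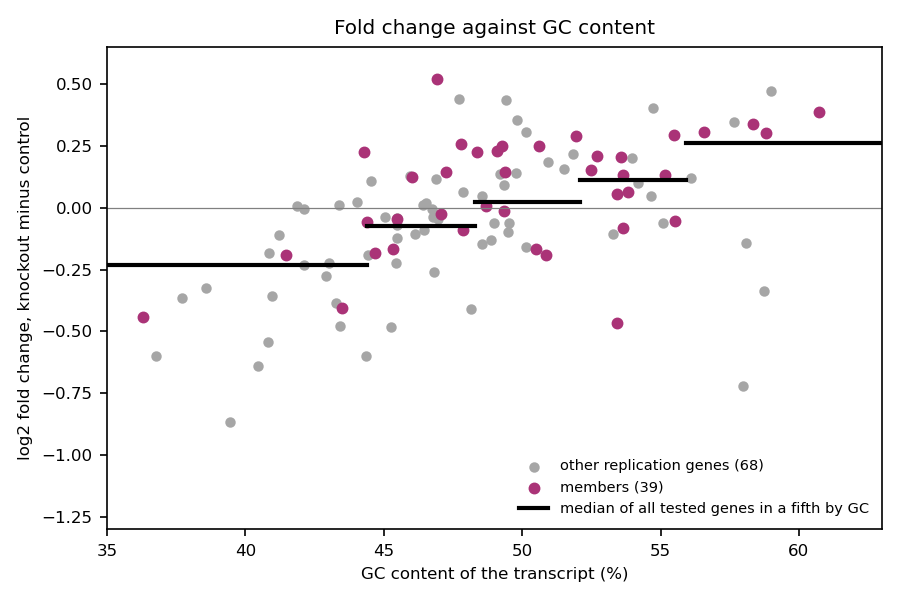
Log2 fold change, knockout minus control (y axis), against GC content of the longest coding transcript (x axis, %), for the 39 members and the 68 other replication genes. Black lines give the median of all tested genes in each of 5 bins by GC content, from -0.23 to 0.26, and end at the limits of the axis.

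A list of 69 other genes of DNA replication, which are no members, was set beside them, and 68 were tested. Of these, 4 were lower and 1 was higher, while 8.51% of all genes tested were called lower and 7.98% higher. The median log2 fold change of this list was -0.06, with 27 genes above 0 and 41 below. Rrm2b, the small subunit of ribonucleotide reductase that is induced by p53 outside S phase (chromosome 15, 37923952 to 37961318), was at 22.7, 22.4 and 26.03 CPM in the controls and 11.6 and 14.4 CPM in the knockouts. It fell by 0.86 on the log2 scale (SE 0.15, edgeR adjusted p = 0.0155). With the GC and length trends removed it fell by 0.55 (edgeR adjusted p = 0.0278). Among the reductase genes, the S-phase subunit Rrm2 and the large subunit Rrm1 among the members did not pass the test.

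Atr, the kinase that responds to stalled forks (chromosome 9, 95857597 to 95951781), was at 95.2, 90.6 and 85.8 CPM in the controls and 57.8 and 66.4 CPM in the knockouts, with both knockouts below every control. It fell by 0.54 (log2 scale, SE 0.094, edgeR adjusted p = 0.0154). Cdk2, the kinase partner of cyclin E (chromosome 10, 128697939 to 128705031), was at 19.4, 19.1 and 17.2 CPM in the controls and 26.8 and 23.5 CPM in the knockouts, and rose by 0.44 (log2 scale, SE 0.12, edgeR adjusted p = 0.0493). DESeq2 and the fit without knockout replicate 1 were among the 7 of 14 alternatives in which Cdk2 was not called. Over all 14, the adjusted p (edgeR, DESeq2 or limma-voom) ran from 0.0328 to 0.24.

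The other falls were in the origin recognition complex, whose subunits mark the sites where the MCM ring is loaded. Orc2 (chromosome 1, 58462771 to 58505109) was at 68.6, 70.8 and 70.2 CPM in the controls and 41.2 and 51.1 CPM in the knockouts. It fell by 0.60 (log2 scale, SE 0.11, edgeR adjusted p = 0.0157). Orc4 (chromosome 2, 48902824 to 48950277) was at 47.6, 46.4 and 58.9 CPM in the controls and 31.7 and 35.6 CPM in the knockouts, and fell by 0.60 (log2 scale, SE 0.13, edgeR adjusted p = 0.0256). The exons of Orc2 and Orc4 overlap genes of the opposite strand, Nif3l1 by 854 bases and Acvr2a by 446 bases.

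The remaining subunits were looked at after their values were seen. Orc5, Orc6, Orc3 and Orc1 had log2 fold changes of -0.38, -0.22, -0.22 and -0.004, with edgeR adjusted p of 0.073, 0.294, 0.121 and 0.993. For 5 of the 6 Orc genes both knockouts lay below every control, as did those of 27.0% of all genes tested and of 0 of the 6 genes of the MCM ring. The difference between the complexes was not tested. The summed level of the Orc genes was 229, 241 and 255 CPM in the controls and 169 and 195 CPM in the knockouts, and that of the ring genes was 442, 432 and 403 CPM in the controls and 436 and 456 CPM in the knockouts. The transcripts of the Orc genes have a median GC content of 43.8%. With the GC and length trends removed, Orc2 still passed (log2 fold change -0.43, edgeR adjusted p = 0.0225), Orc4 did not (-0.17, edgeR adjusted p = 0.222), and the median of the 6 was -0.03. The calls of Orc2, Orc4, Rrm2b, Atr and Cdk2 were lost when some single libraries were left out. Without control replicate 2 their edgeR adjusted p ran from 0.0663 (Rrm2b) to 0.134 (Cdk2), and without knockout replicate 1 from 0.0617 (Rrm2b) to 0.24 (Cdk2). Without control replicate 3, Atr passed (edgeR adjusted p = 0.0489) and the other 4 ran from 0.0574 (Orc2) to 0.148 (Cdk2). The unadjusted p of all 5 stayed under 0.05 in these fits.

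**Figure D5:**
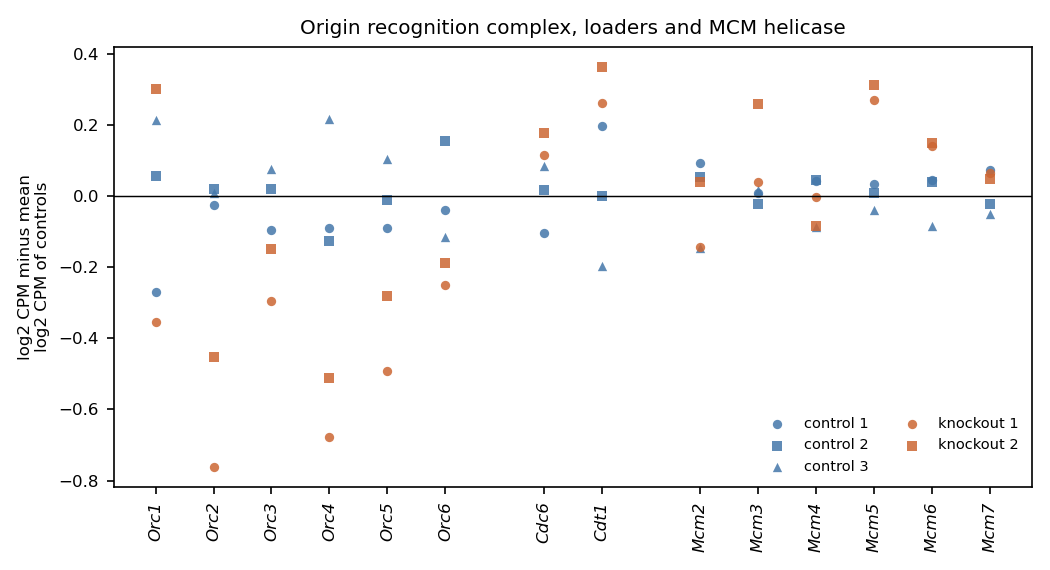
Log2 CPM minus the mean log2 CPM of the 3 controls (y axis) in each library, for the subunits of the origin recognition complex, the loaders Cdc6 and Cdt1, and the MCM ring. Both knockouts lie below every control for Orc2, Orc3, Orc4, Orc5 and Orc6, and above every control for Cdc6, Cdt1, Mcm3, Mcm5 and Mcm6.

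CPM per kilobase divides by the length of the longest coding transcript, whichever form is expressed, so ranks between genes depend on that length. On this scale Mcm2, Rrm1 and Uhrf1 stood highest among the members in the controls, at 32.8 ± 2.84, 26.3 ± 0.348 and 23.5 ± 1.68 (SD, n = 3). The lowest were Gins2, Gins3 and E2f2, at 1.61 ± 0.169, 2.39 ± 0.133 and 2.54 ± 0.279. The same genes held the 3 highest and the 3 lowest ranks in the knockouts, where Uhrf1 took rank 2 and Rrm1 rank 3. The largest moves in rank were those of Rfc4, from 22 to 32, and Ccne2, from 26 to 34, toward lower levels. Toward higher levels, Gins1 moved from rank 34 to 27 and E2f1 from rank 33 to 26. Before division by length, Gins2 (3900 bases) was at 6.29 CPM in the controls and Gins1 (1087 bases) at 4.39 CPM.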

How the data were processed

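RNA of the 5 lens libraries was sequenced, and the authors deposited unnormalized read counts by gene symbol, in whole numbers whose sum differed between libraries. Per the submitters' processing notes, which give neither role nor order, the tools were HTSeq 0.6.1, TopHat2 2.0.13, Cufflinks 2.2.1, Trim Galore 0.3.7 and DESeq2, and the build was mm10. The sources used here give neither the annotation nor the use of strand. Groups came from the sample titles. Counts were tested in R 4.3.3 with edgeR 4.0.16 (filterByExpr with a minimum count of 10, TMM, glmQLFit, glmQLFTest, no covariate), which kept 12035 genes, with Benjamini-Hochberg adjustment over all of them. The SE is the log2 fold change over the square root of F, and intervals use the t quantile at the fit's degrees of freedom. Since a library is a pool of animals, p-values cover the spread between pools alone, which may be partly technical. The libraries of a group differed by more than sampling noise (chi-square over degrees of freedom 10.1 to 23.6). Alternatives used limma 3.58.1, DESeq2 1.42.0, other scalings, no filter, single libraries left out, the replicate number as a block, and loess trends on GC content and log length (span 0.3) as offsets. Length and GC content came from the longest coding transcript in GENCODE vM21 (GRCm38), known for 98.1% of tested genes and all 39 members. The members, roles and lists were chosen with earlier results of these data known. Full values are given for members with the 6 smallest p, and for the member of each role with the highest CPM, the highest fold change or the lowest fold change. The rest are given by fold change. Of the other replication genes, those called are given in full. Uncalled subunits of the polymerases and of the origin recognition complex are named besides, outside this rule. The fits were also run on simulated counts, drawn from the dispersions fitted here and without a GC trend. That run does not measure their accuracy on these data.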

Additional observations from a re-analysis of the deposited data

How the results depend on the processing

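Depth limits the rarest members, whose counts go down to 49. Of the 39 intervals, 12 reached a 1.5-fold change, and not only those of rare members, since Pold1 with 310 to 541 counts was among them. Over 14 alternatives, 20 of the 39 members kept the sign of their fold change, and 8 of 546 member values were called. Called higher among the members were 1 gene with RLE or upper-quartile scaling, 2 with library totals only (which moved the median of all genes to 0.087), 2 with GC and length trends removed, and 0 to 1 with single libraries left out. Called lower were 0 to 1 with single libraries left out, and 0 otherwise. Of the other replication genes, 3 were higher with library totals only, 0 with DESeq2, and 0 to 2 with single libraries left out, and 0 to 8 were lower with single libraries left out. Over all genes, 1511 were higher and 637 lower with library totals only (70.3% of calls higher, against 48.4% with TMM), 451 were higher with the GC and length trends removed (38.2% of calls), and 21 to 1426 were higher and 17 to 1291 lower with single libraries left out. The adjusted p of Orc2 ran from 0.000145 to 0.0756, of Rrm2b from 0.000195 to 0.0787, of Atr from 8.17e-05 to 0.0817 and of Orc4 from 0.00211 to 0.572. With RLE scaling, 1003 of the 12035 genes tested were called higher and 1022 lower, and with upper-quartile scaling 1050 and 972. Where 1 knockout library is left out, the lone one is assumed to vary like the controls.

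Between control and knockout libraries of the same replicate number, the correlations of deviations from the group means were -0.093 (number 1) and 0.007 (number 2). With 2 knockouts their deviations mirror each other, so these values cannot show whether the numbers mark a pairing. With the replicate block, 473 genes were higher and 522 lower, with 0 members and 0 other replication genes higher and a median of the members of 0.080. With the replicate block and GC and length trends removed, 345 were higher and 482 lower, 0 other replication genes were higher and 2 lower, and Rrm2b was not called (adjusted p 0.0787). The log2 fold change of Orc1 was 0.086 with the replicate block and 0.0055 with upper-quartile scaling.

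Signs changed in at least 1 alternative for 19 members, Ccne2, Pold1, E2f2 and Rfc3 among them, and the cause was not tested. With library totals only, log2 fold changes became 0.032 for Mcm2, 0.041 for Mcm4, 0.072 for Rfc5, 0.025 for Rrm1, 0.00030 for Chaf1b, 0.053 for Slbp and 0.073 for Orc1. With GC and length trends removed they became 0.086 for Mcm4, -0.030 for Mcm7, -0.024 for Mcm10, 0.033 for Gins3, 0.019 for Pola1, 0.11 for Pole2, 0.10 for Pcna, 0.043 for Rfc5, 0.090 for Rrm1, -0.15 for Chaf1a, 0.16 for Slbp, -0.0063 for Uhrf1, 0.040 for Ccne2, 0.11 for Orc1, 0.049 for Orc3 and 0.056 for Orc6. With the replicate block as well they became 0.026 for Mcm4, -0.041 for Mcm7, 0.039 for Gins3, -0.053 for Pold1, 0.080 for Pole2, 0.048 for Pcna, 0.060 for Rrm1, -0.17 for Chaf1a, 0.15 for Slbp, -0.044 for Uhrf1, -0.052 for E2f2, 0.060 for Ccne2, 0.19 for Orc1 and 0.054 for Orc3. With single libraries left out, Mcm2 ran from -0.15 to 0.038, Mcm10 from -0.15 to 0.15, Gins3 from -0.22 to 0.028, Pole2 from -0.47 to 0.057, Rfc3 from -0.10 to 0.49, Rfc5 from -0.069 to 0.062, Fen1 from -0.11 to 0.23, Chaf1b from -0.27 to 0.15, Slbp from -0.21 to 0.14 and Orc1 from -0.37 to 0.29.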

Other observations

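The CCAAT box, searched as CCAAT on both strands, was present in 22 of the 38 promoter windows of the replication genes (57.9%), against 37.4% of all windows and 38.0% of those of genes tested. It was in all 3 windows of the helicase activation genes (Mcm10, Cdc45 and Gins3) and in 0 of the 5 windows of Fen1 and Lig1. The median log2 fold change was 0.13 over the 19 genes with a match and 0.20 over the 13 without, with values on either side of 0 in both groups.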
